A study of Mus musculus with 8 samples.

Results

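The Myc and Mxd network was described here by 8 genes, chosen by name: Myc, Mycn, Max, Mxd1, Mxd3, Mxd4, Mnt and Mga. All 8 were found among the 56748 genes of the expression table and all 8 were among the 11818 genes that passed the expression filter (at least 1 FPKM in at least 2 libraries). FPKM is the number of read pairs on a gene per kilobase of its length, scaled to the depth of the library, so that levels of different genes can be set side by side.

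Myc and Mycn are transcription factors that bind DNA only as dimers with Max and that activate genes of ribosome production, nucleotide synthesis, glycolysis and the cell cycle. The Mxd proteins and Mnt compete for Max and for the same DNA site, the E-box CACGTG, and recruit Sin3 corepressors there, while Mga joins Max in a Polycomb repressive complex. In blood cells Myc is induced by cytokine signalling through Jak2, several Mxd genes are known for rising when cells stop dividing and differentiate, and Mxd3 is known for being expressed in cycling cells during S phase.

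RNA sequencing was performed on clones of 32D, a mouse myeloid cell line that depends on interleukin-3 (IL-3). All cells had been transduced with murine Jak2, either wild type (Jak2WT) or the activating mutant found in myeloproliferative neoplasms (Jak2V617F). In each background, clones with intact glucose transporters (GLUT1/3 WT) were set against clones in which Slc2a1 and Slc2a3, the genes of GLUT1 and GLUT3, had been disrupted with CRISPR-Cas9 (GLUT1/3 dKO). Each of the 4 groups held 2 libraries, from clones numbered 1 and 3. Before RNA isolation all were held for 24 hours in pyruvate-free RPMI that contained glucose at 5 mM, glutamine at 1 mM and IL-3 at 2 ng/ml. Each library is therefore 1 single-cell clone. With 2 clones a group, differences between groups can be set only against the spread between these few clones, and which clones were picked may still enter into them.

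The libraries held 16846011 to 48884329 read pairs on genes. Slc2a1 stood at 9.17 to 17.3 FPKM in the dKO clones and at 44.7 to 64.0 FPKM in the GLUT1/3 WT clones, and Slc2a3 at 16.0 to 49.5 FPKM and at 91.9 to 198 FPKM. Total Jak2 stood at 218 to 258 FPKM in the Jak2WT clones and at 139 to 165 FPKM in the Jak2V617F clones. Of 10 myeloid progenitor markers, 2 (Kit and Cebpa) were at 0 in all libraries, and the summed level of the list was 219 to 248 FPKM in Jak2WT GLUT1/3 WT, 159.8 to 197 FPKM in Jak2WT GLUT1/3 dKO, 196 to 201 FPKM in Jak2V617F GLUT1/3 WT and 89.1 to 92.0 FPKM in Jak2V617F GLUT1/3 dKO. Most of this sum was Csf2rb, at 114 to 190 FPKM in the Jak2WT clones. It stood at 127 and 131 FPKM in Jak2V617F GLUT1/3 WT and at 55.4 and 48.9 FPKM in Jak2V617F GLUT1/3 dKO. Mpo, Elane and Ctsg were at most 0.203 FPKM in any library, while Il3ra ranged from 6.61 to 9.38 FPKM and Prtn3 from 3.11 to 10.2 FPKM. Markers of lymphoid cells summed to at most 0.708 FPKM and those of stroma and epithelium to at most 0.0392 FPKM. The 6 mast cell and basophil markers summed to 51.4 to 102 FPKM in the Jak2WT clones, nearly all of it Cpa3, and to 0.338 to 2.41 FPKM in the Jak2V617F clones, while the 4 megakaryocyte markers, mostly Itga2b, summed to 65.0 to 65.7 FPKM in Jak2WT GLUT1/3 WT, 88.6 to 94.2 FPKM in Jak2WT GLUT1/3 dKO, 183 to 193 FPKM in Jak2V617F GLUT1/3 WT and 189.8 to 230.5 FPKM in Jak2V617F GLUT1/3 dKO. The summed level of 10 erythroid markers, which include globins, was 94.0 to 112 FPKM in Jak2WT GLUT1/3 WT, 248 to 292 FPKM after transporter loss in Jak2WT, 554 to 913 FPKM in Jak2V617F GLUT1/3 WT and 2608 to 4789 FPKM in Jak2V617F GLUT1/3 dKO. In such bulk libraries a change in the number of cells of a type and a change in RNA per cell cannot be told apart, and the part of the erythroid, mast cell, megakaryocyte and progenitor markers in the changes described next was not tested.

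The promoters of these genes differ in which known binding motifs they contain. The RefSeq promoter table (build GRCm38.p6, an older build than that of the expression table) had an entry for 7 of the 8 genes, all but Myc, and the 250 bases before each start were searched on both strands. The E-box CACGTG was present in 2 of the 7 (Mxd4 and Mnt), against 6.02% of all 32851 promoter windows of that length. In Mnt only the first 132 bases of the window lie before every annotated transcript, and the E-box lies across that boundary. A binding site of E2F factors, written TTTCCCGC, TTTCGCGC, TTTGCCGC or TTTGGCGC, was present in 1 of the 7 (Mycn, where 3 matches were found, of which one overlaps another), against 1.86% of windows. The STAT site TTCNNNGAA was found in 0 of the 7, against 7.02% of windows. A match is a description of the letters and not evidence of binding. Shown are Mycn and Mxd4, which both fell on loss of the transporters in Jak2V617F, and the 81 bases of the Mxd3 window that lie before every annotated transcript, since Mxd3 moved the other way. Capitals mark the E2F matches in Mycn and the E-box in Mxd4 and in the 30 bases around it in Mnt.
Mycn, chr12:12941837-12942086, minus strand: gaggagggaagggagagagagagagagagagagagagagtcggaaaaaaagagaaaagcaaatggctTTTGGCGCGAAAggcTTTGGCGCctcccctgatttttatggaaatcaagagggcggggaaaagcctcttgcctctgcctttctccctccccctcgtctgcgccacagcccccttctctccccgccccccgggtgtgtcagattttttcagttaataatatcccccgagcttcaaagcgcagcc
Mxd4, chr5:34187711-34187960, minus strand: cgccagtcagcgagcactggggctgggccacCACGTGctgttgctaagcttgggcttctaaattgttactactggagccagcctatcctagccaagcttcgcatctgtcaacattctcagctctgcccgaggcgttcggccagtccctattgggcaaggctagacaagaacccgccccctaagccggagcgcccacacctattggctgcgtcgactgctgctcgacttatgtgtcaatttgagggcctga
Mxd3, chr13:55329901-55329981, minus strand: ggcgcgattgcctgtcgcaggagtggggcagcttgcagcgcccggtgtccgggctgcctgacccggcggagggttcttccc
Mnt, E-box site, plus strand: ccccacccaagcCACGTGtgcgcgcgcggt

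In level, the activators stood far above the repressors in every library. Myc (ENSMUSG00000022346, chr15:61857240-61862223 on build mm39) had a mean of 124 FPKM over the 8 libraries, which placed it at rank 327 of all genes, and Mycn (chr12:12986094-12991915) had 71.6 FPKM, rank 630. Max (chr12:76984043-77008975), the shared partner, followed with 41.0 FPKM. Among the repressors Mga (chr2:119727709-119800062) had 15.9 FPKM, Mnt (chr11:74721746-74736551) 9.24, Mxd4 (chr5:34331227-34345064) 4.97, Mxd3 (chr13:55472981-55477636) 2.33 and Mxd1 (chr6:86624024-86646143) 1.24, rank 10705. The coordinates span the whole gene, and FPKM was counted over its exons. The order of the 8 means held within each group except that Mxd3 fell below Mxd1 in Jak2V617F GLUT1/3 WT. From the lowest to the highest library, Mxd3 varied 4.45-fold and Mycn 2.85-fold, whereas the other 6 genes varied between 1.21-fold (Mga) and 1.71-fold (Mxd4).

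**Figure D1:**
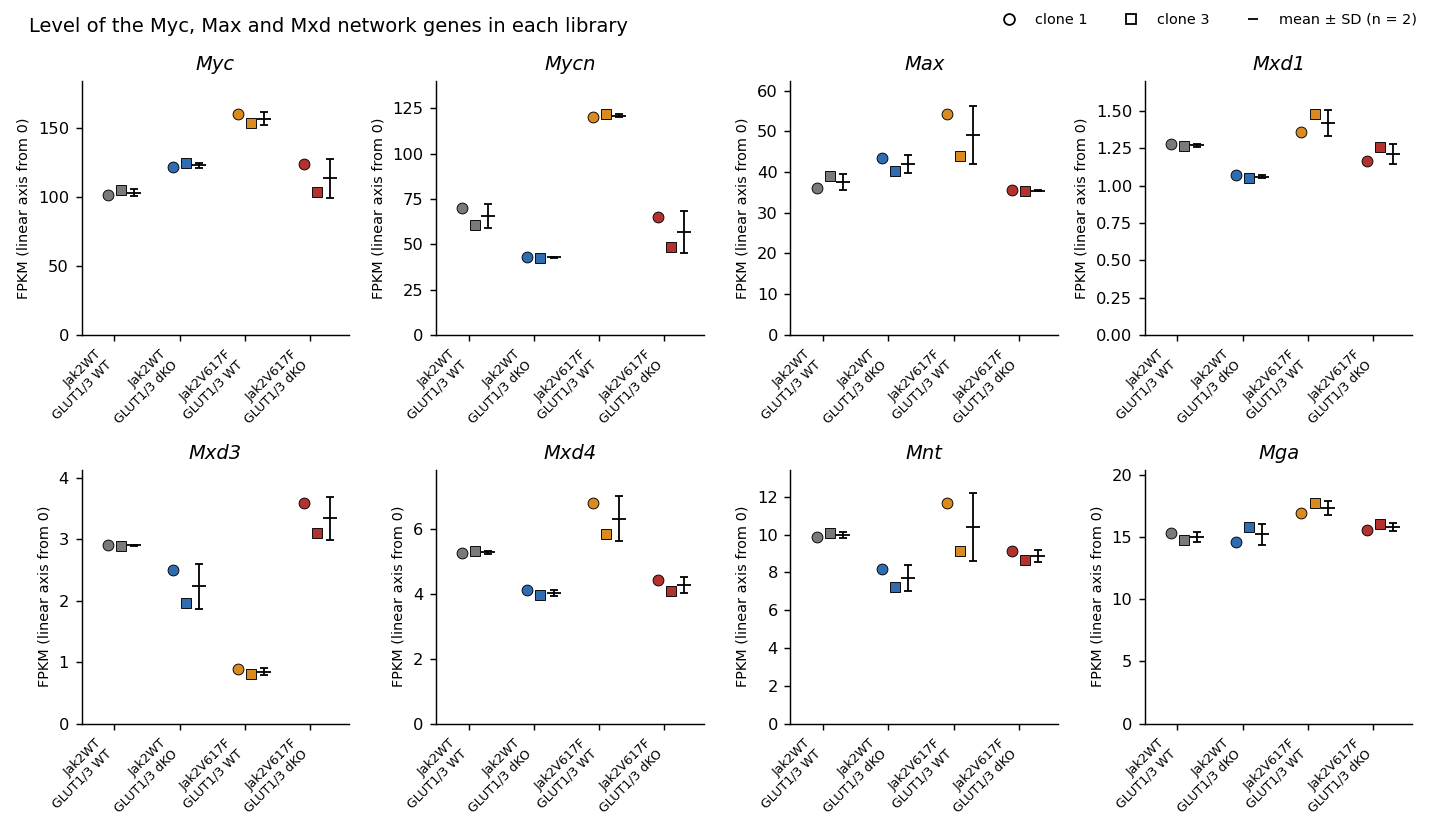
FPKM (linear axes starting at 0) of the 8 genes in the 8 libraries, by group, with circles for clone 1, squares for clone 3 and the bar beside them for the mean ± SD of the 2 clones. Mycn was highest in Jak2V617F GLUT1/3 WT (120 and 122 FPKM), where Mxd3 was lowest (0.887 and 0.807 FPKM).

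Myc was highest in the Jak2V617F clones with intact transporters. Clones 1 and 3 had 101 and 105 FPKM in Jak2WT GLUT1/3 WT, 122 and 125 FPKM in Jak2WT GLUT1/3 dKO, 160 and 154 FPKM in Jak2V617F GLUT1/3 WT, and 124 and 104 FPKM in Jak2V617F GLUT1/3 dKO. The Jak2V617F GLUT1/3 WT clones stood above all the others, and the Jak2V617F GLUT1/3 dKO clones spread over the values of the Jak2WT clones. In limma on log2(FPKM + 1), Myc was 0.60 ± 0.10 (SE) higher in Jak2V617F than in Jak2WT among GLUT1/3 WT clones (1.52-fold in mean FPKM, adjusted p = 0.00474). On loss of the transporters Myc fell by 0.47 ± 0.10 in Jak2V617F (adjusted p = 0.0121), and differed by +0.25 ± 0.10 in Jak2WT without passing the threshold (adjusted p = 0.126). The fall in Jak2V617F lost its call without Jak2V617F GLUT1/3 WT clone 1 (adjusted p = 0.0566) and in a fit of those 2 groups alone (adjusted p = 0.0694).

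Mycn, the paralogue of Myc best known from embryonic and neural progenitors, followed the same rise with Jak2V617F and fell on transporter loss in both backgrounds. Its levels in clones 1 and 3 were 70.2 and 60.9 FPKM in Jak2WT GLUT1/3 WT, 43.0 and 42.7 FPKM in Jak2WT GLUT1/3 dKO, 120 and 122 FPKM in Jak2V617F GLUT1/3 WT, and 64.9 and 48.5 FPKM in Jak2V617F GLUT1/3 dKO. No dKO clone overlapped the GLUT1/3 WT clones of its own background, and the Jak2V617F GLUT1/3 dKO and Jak2WT GLUT1/3 WT clones overlapped each other. With 2 clones a group such separation was common: on transporter loss, 66.2% of all genes tested had it in Jak2WT and 64.3% in Jak2V617F. The fall was 1.10 ± 0.14 in Jak2V617F (2.14-fold lower in mean FPKM, adjusted p = 0.00182) and 0.60 ± 0.14 in Jak2WT (1.53-fold lower, adjusted p = 0.0323). The test of the difference between the 2 falls gave -0.50 ± 0.20 (adjusted p = 0.138), so that a larger fall in Jak2V617F was not shown; without Jak2V617F GLUT1/3 dKO clone 1 it was -0.71 (adjusted p = 0.0358). Among GLUT1/3 WT clones Mycn was 0.88 ± 0.14 higher in Jak2V617F (adjusted p = 0.00423). The call in Jak2WT was lost when any 1 of the 4 Jak2WT libraries was left out (adjusted p 0.0909 to 0.183), whereas the calls in Jak2V617F and between the backgrounds were kept in all 18 alternative analyses.

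Max, the shared dimerisation partner of the activators and of the repressors, was, like Myc and Mycn, highest in Jak2V617F GLUT1/3 WT. Its levels in clones 1 and 3 were 36.1 and 39.0 FPKM in Jak2WT GLUT1/3 WT, 43.4 and 40.3 FPKM in Jak2WT GLUT1/3 dKO, 54.2 and 44.0 FPKM in Jak2V617F GLUT1/3 WT, and 35.6 and 35.3 FPKM in Jak2V617F GLUT1/3 dKO. The 2 Jak2V617F GLUT1/3 WT clones differed more from each other than the Jak2WT clones did, and both were above every other library. Max was 0.37 ± 0.11 higher in Jak2V617F than in Jak2WT among GLUT1/3 WT clones (adjusted p = 0.0383) and fell by 0.45 ± 0.11 on transporter loss in Jak2V617F (adjusted p = 0.0202). Neither call was firm: the first was lost in 9 of 18 alternatives and the second in 5. Without Jak2V617F GLUT1/3 WT clone 1, the higher of the pair, they were 0.23 (adjusted p = 0.153) and -0.30 (adjusted p = 0.0783). Max shares 1319 bases on the same strand with Gm47218, an unverified gene with at most 76 reads in a library, against 2432 to 7154 reads on Max.

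Mxd3 was the only one of the 8 genes with its lowest level in Jak2V617F GLUT1/3 WT, the group in which the other 7 had their highest mean. Clones 1 and 3 had 2.91 and 2.90 FPKM in Jak2WT GLUT1/3 WT, 2.50 and 1.97 FPKM in Jak2WT GLUT1/3 dKO, 0.887 and 0.807 FPKM in Jak2V617F GLUT1/3 WT, and 3.59 and 3.10 FPKM in Jak2V617F GLUT1/3 dKO. No group overlapped another. In each of the 4 comparisons of groups, 60.6% to 69.4% of all genes tested had clones that did not overlap. Mean FPKM was 3.43-fold lower in Jak2V617F than in Jak2WT among GLUT1/3 WT clones (difference -1.08 ± 0.12 on the log2 scale, adjusted p = 0.00155) and 3.95-fold higher after transporter loss in Jak2V617F (+1.23 ± 0.12, adjusted p = 0.000860). Because 1 was added to the FPKM, the log2 differences understate the change of so low a gene. In Jak2WT the dKO clones differed by -0.28 ± 0.12 (adjusted p = 0.175). Both Jak2V617F calls were kept in all 18 alternatives, and 2.76% of the genes tested had a larger absolute difference on transporter loss in Jak2V617F. The gene carried 45 to 296 reads per library. It overlaps 105 bases of Prelid1 on the opposite strand, a gene with 68.2 to 150 FPKM, and since the strand setting of the read counting is not given in the sources used here, reads from those bases cannot be told apart.

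Mxd4, a repressor of differentiating cells, was lower in the dKO clones of both backgrounds. Its levels in clones 1 and 3 were 5.24 and 5.31 FPKM in Jak2WT GLUT1/3 WT, 4.10 and 3.97 FPKM in Jak2WT GLUT1/3 dKO, 6.80 and 5.83 FPKM in Jak2V617F GLUT1/3 WT, and 4.44 and 4.08 FPKM in Jak2V617F GLUT1/3 dKO. All 4 dKO clones lay below all 4 GLUT1/3 WT clones. Within a background, 66.2% (Jak2WT) and 64.3% (Jak2V617F) of all genes tested had dKO and GLUT1/3 WT clones that did not overlap. The fall passed the threshold in Jak2V617F (-0.47 ± 0.09, adjusted p = 0.00987) and missed it in Jak2WT (-0.32 ± 0.09, adjusted p = 0.0638), and the difference between the backgrounds was -0.16 ± 0.13 (95% interval -0.47 to 0.15, adjusted p = 0.466). Without Jak2V617F GLUT1/3 WT clone 1 the change in Jak2V617F was -0.38 (adjusted p = 0.0513), and with libraries scaled to the same total the one in Jak2WT passed (-0.40, adjusted p = 0.0211).

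Mnt, Mxd1 and Mga passed the threshold in none of the comparisons. Mnt, the most broadly expressed competitor of Myc, ranged from 7.23 to 11.7 FPKM and was lowest in the Jak2WT GLUT1/3 dKO clones (8.19 and 7.23 FPKM, against 9.87 and 10.1 FPKM in Jak2WT GLUT1/3 WT). That difference was -0.34 ± 0.12 (adjusted p = 0.0993), and it passed with libraries scaled to the same total (-0.43, adjusted p = 0.0247) and with voom (-0.45, adjusted p = 0.0200). Mxd1, a gene of terminal differentiation, ranged from 1.05 to 1.48 FPKM with differences of at most 0.14 in size in the 4 comparisons of groups. As for Mxd3, the 1 added to the FPKM makes these log2 differences smaller. In mean FPKM it was 1.2-fold lower on transporter loss in Jak2WT and 1.17-fold lower in Jak2V617F. Between the backgrounds it was 1.12-fold higher in Jak2V617F among GLUT1/3 WT clones and 1.14-fold higher among dKO clones. Mga was the steadiest of the set, from 14.6 to 17.8 FPKM, and its largest difference was +0.19 ± 0.08 between the backgrounds among GLUT1/3 WT clones (adjusted p = 0.0931). The 95% interval of that difference ran from 0.02 to 0.37.

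Read together by comparison, the set had 5 of 8 genes called on transporter loss in Jak2V617F (Myc, Mycn, Max and Mxd4 lower, Mxd3 higher), where 29.9% of all genes tested were called (13.7% higher and 16.2% lower). On transporter loss in Jak2WT only Mycn was called, against a background of 13.7% (7.62% higher and 6.06% lower). Between the backgrounds, 4 of 8 were called among GLUT1/3 WT clones (Myc, Mycn and Max higher in Jak2V617F, Mxd3 lower), where 30.3% of all genes were (15.3% higher and 14.9% lower). Among dKO clones limma called 0 of 8 between the backgrounds, against 17.1% of all genes (7.12% higher and 9.96% lower), with 2 of 8 at an unadjusted p under 0.05 (Mycn at +0.38 and Mxd3 at +0.43), where 32.0% of all genes were. Both were called by voom on the recovered reads, which called 22.7% of all genes. These comparisons share groups with each other: the Jak2V617F GLUT1/3 WT clones enter both the loss of the transporters in Jak2V617F and the comparison of backgrounds among GLUT1/3 WT clones, with the opposite sign, and the other groups are likewise each part of a pair of comparisons.

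The difference between the 2 backgrounds in the response to transporter loss was tested as an interaction. It was called for Myc (-0.72 ± 0.14, adjusted p = 0.0248), Max (-0.61 ± 0.15, adjusted p = 0.0495) and Mxd3 (+1.51 ± 0.18, adjusted p = 0.00881), against 10.6% of all genes (4.72% positive and 5.91% negative). Mxd3 had rank 85 of 11818 genes from the top. The other 5 genes did not pass, with values from -0.50 (Mycn) to +0.14 (Mnt). Each call depended on single libraries. For Mxd3 the adjusted p was 0.0502 without Jak2WT GLUT1/3 WT clone 1 and 0.0568 without clone 3, with the value at 1.51 in both. For Myc it was 0.0690 to 0.0994 without Jak2V617F GLUT1/3 WT clone 1 or any 1 of the 4 Jak2WT libraries, and for Max the call was lost in 11 of 17 alternatives.

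**Figure D2:**
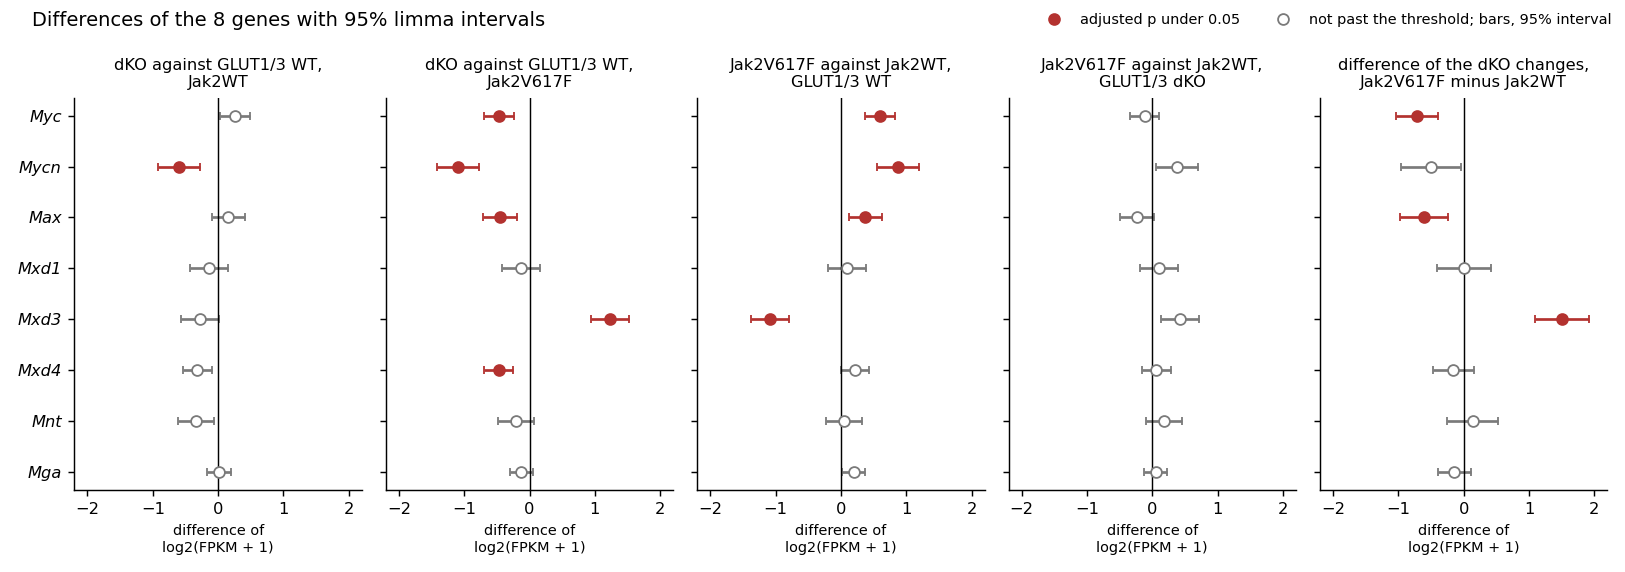
Differences of log2(FPKM + 1) (x axis) of the 8 genes (y axis) in the 4 comparisons of groups and in the interaction, with 95% limma intervals as bars; filled red points passed an adjusted p of 0.05. In Jak2V617F, Mxd3 lies at +1.23 on transporter loss while Mycn lies at -1.10.

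The balance of the network was also expressed as ratios of FPKM, which are descriptions with no test. The ratio of Myc to the sum of Mxd1, Mxd3, Mxd4, Mnt and Mga was, in clones 1 and 3 of Jak2WT, 2.92 and 3.07 with intact transporters and 4.0 and 4.15 after their loss, and in those of Jak2V617F 4.25 and 4.39 with intact transporters and 3.65 and 3.14 after their loss. Transporter loss thus went with a higher ratio in Jak2WT and a lower one in Jak2V617F. These 2 directions also held with Mga left out of the sum (group means 5.32, 8.22, 8.32 and 6.42). They held too with Mxi1, a further Mxd family gene that is not one of the 8, added to it (2.04, 3.15, 3.05 and 2.59). With Mxi1 the highest mean was that of Jak2WT GLUT1/3 dKO, in place of Jak2V617F GLUT1/3 WT. The ratio of Myc to Max moved less, from 2.70 to 3.49 over the libraries, with overlapping groups. Of the summed Myc and Mycn level, Mycn made up 41.0% and 36.6% in Jak2WT with intact transporters and 26.1% and 25.5% after their loss, and 42.9% and 44.2% against 34.4% and 31.8% in Jak2V617F. It was thus lower in the dKO clones of each background. The summed Myc and Mycn level stood at 278 ± 3.48 FPKM in Jak2V617F GLUT1/3 WT (SD, n = 2), 169 ± 3.77 FPKM in Jak2WT GLUT1/3 WT, 166 ± 1.64 FPKM in Jak2WT GLUT1/3 dKO and 170.5 ± 25.7 FPKM in Jak2V617F GLUT1/3 dKO, where the clones were at 189 and 152 FPKM. Within the sum of Mxd1, Mxd3 and Mxd4 the share of Mxd3 was 9.80% and 9.95% in Jak2V617F GLUT1/3 WT and between 28.2% and 39.1% in the other 6 libraries. With Mxi1 in the sum it was 3.54% and 3.58% in that group and between 11.1% and 18.6% in the others. The summed level of Mxd1, Mxd3 and Mxd4 had group means from 7.33 to 9.45 FPKM. With Mxi1 the sum was 25.6 ± 0.820 FPKM in Jak2WT GLUT1/3 WT and 16.2 ± 0.166 FPKM after transporter loss, and 23.8 ± 1.78 FPKM and 19.3 ± 0.0284 FPKM in Jak2V617F, so that it was lower in the dKO clones of each background. This sum was added after the values were seen.

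**Figure D3:**
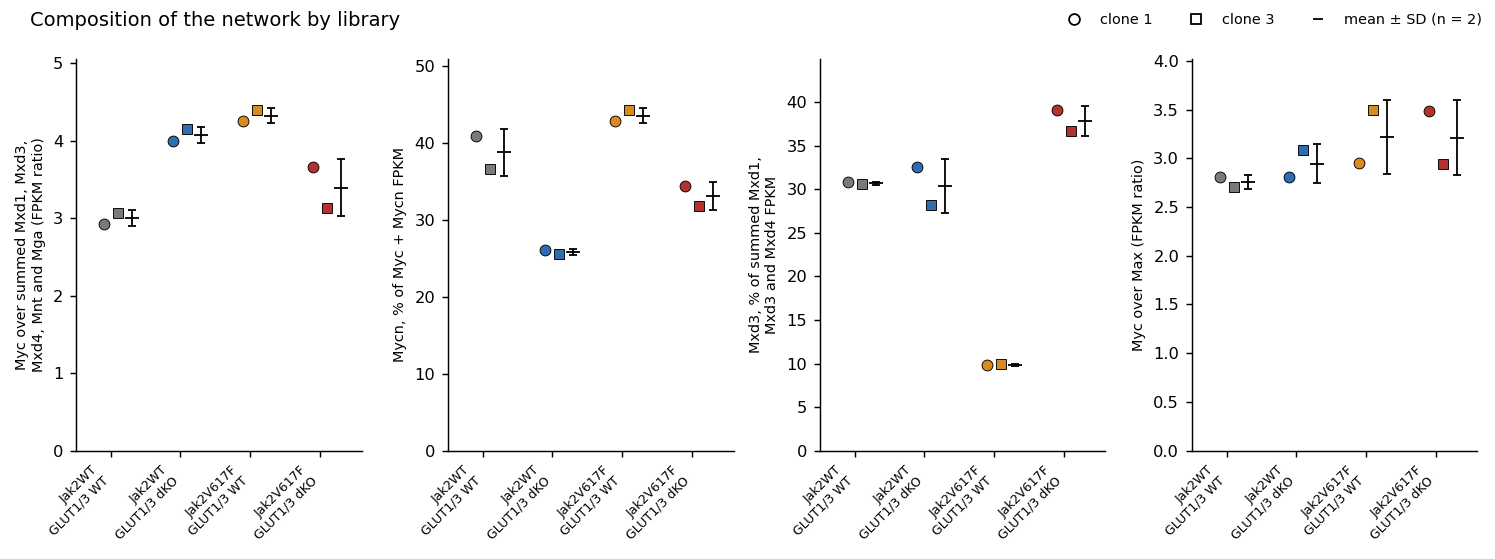
Ratios and shares of FPKM within the network by library, on axes starting at 0, with circles for clone 1, squares for clone 3 and the bar beside them for the mean ± SD of the 2 clones. Myc over the summed repressors was lowest in Jak2WT GLUT1/3 WT (2.92 and 3.07), and Mxd3 formed 9.80% and 9.95% of the sum of Mxd1, Mxd3 and Mxd4 in Jak2V617F GLUT1/3 WT.

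For each gene, the 3 genes with the most similar pattern were sought by Pearson's r of log2(FPKM + 1) over the 8 libraries, among 7321 to 7322 genes with a mean of at least 5 FPKM. The points share 4 groups of 2 clones, so r describes mainly the order of the groups. Nearest to Mycn was Ppp1r15a (r = 0.99), which encodes the stress-induced GADD34 subunit of a phosphatase, with 36.2 and 34.1 FPKM in Jak2V617F GLUT1/3 WT and 14.5 to 22.6 FPKM elsewhere, followed by Maco1 and Aftph (r = 0.99 for both). Nearest to Mxd3 were Midn (r = 0.98), Wee1 (r = 0.97) and Donson (r = 0.97), of which Wee1 encodes a kinase that restrains entry into mitosis and Donson a factor of DNA replication. Donson had 2.92 and 2.93 FPKM in Jak2V617F GLUT1/3 WT and 6.63 to 9.38 FPKM elsewhere. Sri and Emc3 were among those nearest to Myc. Hnrnpc, Vdac2 and Arpc2 were nearest to Max, and Sdf2, Gphn and Numb to Mxd4. For Mxd1 they were Irag2, Zfp207 and Heca, for Mnt Plekha2, Zmat5 and Cd99l2, and for Mga Smc5, Yipf3 and Ndufaf5.

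Of the 3 other genes of the extended network that were tested, Mxi1 and Mlx changed on transporter loss in both backgrounds. Mxi1, a further Mxd repressor, had 16.7 and 15.5 FPKM in Jak2WT GLUT1/3 WT, 8.65 and 9.09 FPKM in Jak2WT GLUT1/3 dKO, 16.0 and 14.5 FPKM in Jak2V617F GLUT1/3 WT, and 10.1 and 10.8 FPKM in Jak2V617F GLUT1/3 dKO. It was thus the most abundant of the Mxd family, and it fell by 0.79 ± 0.09 in Jak2WT (adjusted p = 0.00441) and by 0.50 ± 0.09 in Jak2V617F (adjusted p = 0.00586). Mlx, the Max-like partner of the glucose-responsive factors MondoA and ChREBP, rose by 0.41 ± 0.08 (adjusted p = 0.0188) and 0.40 ± 0.08 (adjusted p = 0.0103), from 12.9 to 14.0 FPKM in the GLUT1/3 WT clones to 17.6 to 18.4 FPKM in the dKO clones. In Jak2WT the call of Mxi1 was lost without Jak2WT GLUT1/3 WT clone 1 (adjusted p = 0.0502) and that of Mlx without any 1 of the 4 Jak2WT libraries (adjusted p 0.0803 to 0.133). In Jak2V617F both were kept with any 1 library left out, and Mlx lost its call when the 2 groups were fitted alone (adjusted p = 0.0644). In limma on log2(FPKM + 1), neither gene differed between the backgrounds past the threshold, nor did its response. With libraries scaled to the same total, 1 of the 3 other genes was called between the backgrounds among GLUT1/3 WT clones (4153 of all genes) and 1 in the interaction (1570 of all genes). The same counts were found with voom (4054 and 1896 of all genes). Mlxip, which encodes MondoA, ranged from 8.10 to 11.3 FPKM with no call in limma on log2(FPKM + 1). Its mean among GLUT1/3 WT clones was 9.25 FPKM in Jak2V617F and 11.2 FPKM in Jak2WT. Mlxipl, which encodes ChREBP, had at most 2 reads, and Mycl had 0 reads in all libraries.

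Of 17 Myc coactivators and partners tested, limma called 0 on transporter loss in Jak2WT, against 13.7% of all genes (median +0.08, against +0.01 over all genes), and 1 in Jak2V617F, against 29.9% (median -0.02, as over all genes), the chromatin cofactor Hcfc1 (26.8 and 26.5 FPKM in Jak2V617F GLUT1/3 WT, 37.5 and 39.9 FPKM in Jak2V617F GLUT1/3 dKO, +0.52 ± 0.09, adjusted p = 0.00576). Between the backgrounds among GLUT1/3 WT clones, 2 of the 17 were higher in Jak2V617F (Kat5 and Dmap1) and 2 lower (Hcfc1 and Ruvbl2), against 15.3% and 14.9% of all genes, and 8 were called with libraries scaled to the same total (35.1% of all genes) or with voom (34.3%). Of 12 Sin3 and NCoR corepressor genes, 2 fell on transporter loss in Jak2WT (Sap30 by 0.50 and Sin3a by 0.40), while 3 rose and 2 fell in Jak2V617F, among them the histone-binding Rbbp4 (+0.42) and the Sin3 subunit Sap30 (-0.78). The all-gene shares were 6.06% lower in Jak2WT, and 13.7% higher and 16.2% lower in Jak2V617F, and the list medians were -0.03 and -0.06. Between the backgrounds among GLUT1/3 WT clones 2 of the 12 were higher (Sin3b and Ncor1) and 2 lower (Sin3a and Rbbp7). Sap30 had 24.3 to 29.2 FPKM in the GLUT1/3 WT clones and 13.9 to 19.7 FPKM in the dKO clones. Of 11 partners of Mga in its Polycomb complex, 3 rose in Jak2WT (E2f6 by 0.63 and Pcgf6 by 0.44 among them), and 2 rose and 1 fell in Jak2V617F (Tfdp1 +0.66, Tfdp2 +0.36 and Rnf2 -0.68). The share of all genes that rose was 7.62% in Jak2WT and 13.7% in Jak2V617F, and the medians of this list were +0.01 and +0.12. Between the backgrounds among GLUT1/3 WT clones 2 of the 11 were higher and 3 lower, with E2f6 at +0.54 and Tfdp1 at -0.64. Without any 1 of the 4 Jak2WT libraries, 0 genes of these last 2 lists were called on transporter loss in Jak2WT. In Jak2V617F 2 or 3 of the corepressor genes were called without either GLUT1/3 WT clone or without dKO clone 3, and between the backgrounds 1 or 2 of the coactivators without any 1 of the 4 GLUT1/3 WT libraries. In that comparison the 4 corepressor calls became 1 without either Jak2WT GLUT1/3 WT clone, 2 without Jak2V617F GLUT1/3 WT clone 3 and 7 with libraries scaled to the same total, and the 5 calls of Mga partners became 2 without either Jak2WT GLUT1/3 WT clone and 3 without Jak2V617F GLUT1/3 WT clone 1. With no filter, 0 of the Mga partners and 1 of the corepressor genes were called on transporter loss in Jak2WT and 2 of the corepressor genes in Jak2V617F. With voom 4 corepressor genes and 5 Mga partners were called in Jak2WT (2605 of all genes), and 5 Mga partners in Jak2V617F (3961 of all genes). Of the coactivators, voom called 2 on transporter loss in Jak2WT and 3 in Jak2V617F. Scaling to the same total called 1 coactivator in Jak2WT (2084 of all genes) and 2 in Jak2V617F (3644 of all genes).

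Among 16 tested regulators of Myc protein turnover, 6 rose and 1 fell on transporter loss in Jak2V617F, where 13.7% of all genes rose and 16.2% fell, whereas 1 rose and 3 fell in Jak2WT, where 7.62% of all genes rose and 6.06% fell (list medians +0.11 and -0.12). Skp2, a ubiquitin ligase subunit that targets Myc and the inhibitor p27, had 4.71 and 4.80 FPKM in Jak2WT GLUT1/3 WT, 4.16 and 4.51 FPKM in Jak2WT GLUT1/3 dKO, 2.25 and 2.11 FPKM in Jak2V617F GLUT1/3 WT, and 4.41 and 4.55 FPKM in Jak2V617F GLUT1/3 dKO. Both Jak2V617F GLUT1/3 WT clones thus lay below all other libraries, as they did for Mxd3, and Skp2 rose by 0.78 ± 0.09 on transporter loss (adjusted p = 0.00115). Cip2a, which protects Myc from a phosphatase, was likewise lowest there (12.3 and 12.0 FPKM, against 19.0 to 25.9 FPKM elsewhere) and rose by 0.68 ± 0.10 (adjusted p = 0.00289). Ppp2r5a, a subunit of that phosphatase, fell by 0.40 ± 0.07 (adjusted p = 0.00804). Between the backgrounds among GLUT1/3 WT clones, 1 was higher and 7 were lower in Jak2V617F (all genes 15.3% and 14.9%), with Cip2a at -0.95 and Skp2 at -0.85 among the lower and the deubiquitinase Usp36 higher by 0.51. The interaction was called for 4 of the 16, against 10.6% of all genes, positive for 3, with Cip2a at +0.95 ± 0.14 and Skp2 at +0.89 ± 0.12. Of these counts, the 7 called on transporter loss in Jak2V617F became 4 without Jak2V617F GLUT1/3 WT clone 1 or clone 3 or without dKO clone 1, and the 4 in Jak2WT and the 4 of the interaction became 0 to 2 without single Jak2WT libraries (the latter also 2 without Jak2V617F GLUT1/3 WT clone 1).

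Of 53 genes reported as activated by Myc, 51 were tested, and they did not move as one block. On transporter loss in Jak2WT 19 rose and 2 fell (all genes 7.62% and 6.06%), with a median of +0.29 against +0.01 over all genes, and the 2 that fell were the glycolytic genes Pkm (-0.68) and Hk2 (-0.46). The largest rises were those of the ribosome assembly genes Rrs1, from 33.2 and 37.9 FPKM to 66.3 and 64.2 FPKM, and Bysl, from 7.72 and 8.50 FPKM to 14.7 and 13.6 FPKM. In Jak2V617F 14 rose and 7 fell, where 13.7% of all genes rose and 16.2% fell (median +0.21 against -0.02 over all genes). The falls were led by Pkm, from 1122 and 972 FPKM to 478 and 369 FPKM (-1.31 ± 0.15), and by the lactate dehydrogenase gene Ldha (-1.19 ± 0.16). The rises were led by 2 cell cycle transcription factors, E2f2, from 6.67 and 5.26 FPKM to 26.1 and 14.2 FPKM (+1.55 ± 0.24), and E2f1, from 4.71 and 4.20 FPKM to 10.4 and 10.6 FPKM (+1.07 ± 0.12). Most of the 21 calls in Jak2WT were lost when any 1 of the 4 Jak2WT libraries was left out, and with no filter they became 12 (714 of all genes). The 21 calls in Jak2V617F became fewer without Jak2V617F GLUT1/3 WT clone 3. They became 33, in either direction, with libraries scaled to the same total (3644 of all genes) and with voom on the recovered reads (3961 of all genes).

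Among GLUT1/3 WT clones, 13 of the 51 were higher and 6 lower in Jak2V617F, against 15.3% and 14.9% of all genes (median +0.18 against +0.01 over all genes). The amino acid transporter gene Slc7a5 was higher by 0.74 ± 0.11 (73.6 and 79.9 FPKM in Jak2WT, 128 and 129 FPKM in Jak2V617F), and the transferrin receptor gene Tfrc was lower by 0.92 ± 0.18. These 19 calls became 7 with no filter and 6 to 8 without Jak2V617F GLUT1/3 WT clone 1 or either Jak2WT GLUT1/3 WT clone. Among dKO clones 2 were higher (E2f2 and E2f1) and 4 lower, against 7.12% and 9.96% of all genes, which became 1 or 2 in all without either Jak2WT GLUT1/3 dKO clone and 3 with no filter. The interaction was called for 10 of the 51, against 10.6% of all genes, and was negative for 8 of them (all genes 5.91%). Slc7a5 (-1.13 ± 0.15) and the nucleolar gene Gnl3 (-0.84 ± 0.11) were the most negative of these, and E2f2 (+1.63 ± 0.35) and E2f1 (+1.17 ± 0.17) were the 2 positive ones. These 10 calls became 2 with no filter and 0 to 4 without Jak2V617F GLUT1/3 WT clone 1 or any 1 of the 4 Jak2WT libraries. Slc7a5 stood at 72.9 and 59.4 FPKM in Jak2V617F GLUT1/3 dKO, where Myc was 1.38-fold lower in mean FPKM than in Jak2V617F GLUT1/3 WT.

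Of 10 genes reported as repressed by Myc, 7 were tested. In each background 0 rose and 3 fell on transporter loss, where 6.06% of all genes fell in Jak2WT and 16.2% in Jak2V617F. The list medians were -0.25 in Jak2WT (+0.01 over all genes) and +0.02 in Jak2V617F (-0.02 over all genes). Ndrg1, a gene of stress and hypoxia responses, fell from 25.7 and 24.1 FPKM to 7.57 and 6.22 FPKM in Jak2WT and from 55.6 and 37.3 FPKM to 17.5 and 21.7 FPKM in Jak2V617F. Gadd45a, a growth arrest gene, stood at 29.9 and 30.6 FPKM in Jak2V617F GLUT1/3 WT, above the 12.9 to 16.0 FPKM of all other libraries, where Myc was also highest. Thbs1 stood at 14.1 and 5.13 FPKM in Jak2WT GLUT1/3 WT and at no more than 0.352 FPKM elsewhere.

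**Figure D4:**
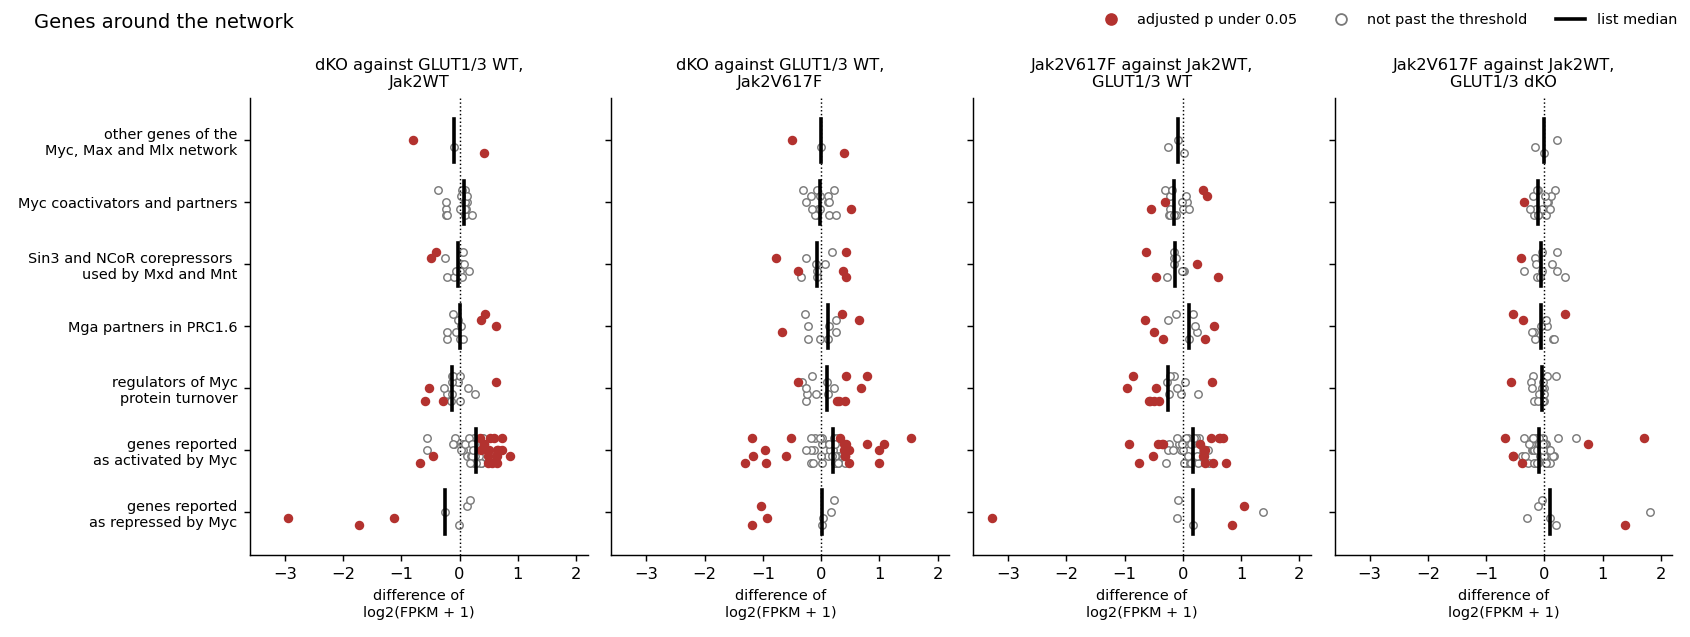
Differences of log2(FPKM + 1) (x axis) of the tested genes of 7 lists around the network (y axis) in the 4 comparisons of groups. Each point is a gene, filled red where the adjusted p was under 0.05, and the thick bar is the list median, which was +0.29 for the genes reported as activated by Myc on transporter loss in Jak2WT.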

How the data were processed

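RNA from 8 libraries (4 groups of 2 clones) was sequenced after poly(A) selection. Per the labels, the authors trimmed reads with fastp 1.0.1, aligned them to mm39 with HISAT2 2.2.1, counted them with featureCounts 2.0.6 and deposited FPKM per gene. The annotation release and the strand setting are not given in the sources used here. FPKM times gene length gave whole reads for 100% of values above 0 (within 0.01), and read totals on genes of 16846011 to 48884329 pairs. A value of 0 allows up to 3 reads, for counting error only. Replicate clones differed beyond sampling noise (chi-square per gene 8.14 to 35.9).

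Differences were tested on log2(FPKM + 1) values, fitted by limma 3.58.1 under R 4.3.3 with a mean per group, an intensity trend and Benjamini-Hochberg adjustment over the 11818 genes with at least 1 FPKM in at least 2 libraries. The fit had 4 residual and 3.34 prior degrees of freedom, and the threshold was an adjusted p of 0.05. The clones are separate but nothing states that cultures were repeated, so p-values cover the spread between clones. Per the paper, the transduced cells were first subcloned by single-cell dilution, and no repeat of the transduction is stated. The p-values between the backgrounds and of the interaction thus do not cover the spread between separately transduced lines. Ratios, shares and correlations carry no test. Named genes were the 8 members, the edited genes, the other network genes, the genes overlapping a member, the 3 most similar genes per member, and in each list and comparison up to 2 called genes with the largest rise and up to 2 with the largest fall whose clones did not overlap. The members and lists were chosen with earlier results of these data known. Alternatives were another pseudocount, no filter or a filter on the mean, no trend, a robust fit, other scalings, voom on the recovered reads, fits of 2 groups, the clone number as a block, and leaving out each library. Promoter sequences are from RefSeq (GRCm38.p6). A further transgene shared by all cells and 1 gene of the similarity ranking are not reported here.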

Additional observations from a re-analysis of the deposited data

Results flagged for a closer look

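The response to transporter loss differed between the Jak2V617F and Jak2WT backgrounds, by the interaction term of limma, for 3 of the 8 genes, against 10.6% of all genes. The difference of log2 changes was -0.72 for Myc (adjusted p = 0.0248), which was 1.38-fold lower in mean FPKM on transporter loss in Jak2V617F and 1.19-fold higher in Jak2WT. It was -0.61 for Max (adjusted p = 0.0495), with mean FPKM 1.39-fold lower in Jak2V617F and 1.12-fold higher in Jak2WT. It was +1.51 for Mxd3 (adjusted p = 0.00881), with mean FPKM 3.95-fold higher in Jak2V617F and 1.30-fold lower in Jak2WT. Each of the 3 calls was lost with single libraries left out, at an adjusted p of 0.0690 to 0.0994 for Myc (without Jak2V617F GLUT1/3 WT clone 1 or any 1 of the 4 Jak2WT libraries), 0.0837 to 0.166 for Max (without any 1 library other than Jak2V617F GLUT1/3 WT clone 3) and 0.0502 and 0.0568 for Mxd3 (without either Jak2WT GLUT1/3 WT clone). The changes within Jak2WT did not pass the threshold for any of these genes.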

How the results depend on the processing

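Of the 8 genes' log2 differences under the alternatives, 644 kept their direction and their side of the threshold, 42 lost the call, 12 gained it and 14 changed sign. In Jak2V617F, the changes of Mycn and Mxd3 on transporter loss and those of Myc, Mycn and Mxd3 between the backgrounds among GLUT1/3 WT clones kept their calls in all 18 alternatives. On transporter loss in Jak2WT, where Mycn alone was called, 0 of the 8 genes were called with no filter (714 of all genes), 3 with libraries scaled to the same total (2084), 3 with voom (2605) and 2 with the 2 groups fitted alone (2062). In Jak2V617F, fitting the 2 groups alone called 2 of the 8 (1617 of all genes). Between the backgrounds among dKO clones, 1 was called without the trend (1865 of all genes), 1 with the same total (2064), 1 with median-ratio scaling (2086) and 2 with voom (2686), while fitting the 2 groups alone called 1028 of all genes. In the interaction 1 was called with no filter (346 of all genes), and voom called 1896 of all genes. With single libraries left out, the number of the 8 genes called and of all genes called ranged from 0 to 1 and 110 to 1974 on transporter loss in Jak2WT, 2 to 5 and 2131 to 2985 in Jak2V617F, 0 to 1 and 620 to 1992 between the backgrounds among dKO clones, and 0 to 3 and 5 to 1256 in the interaction. Among GLUT1/3 WT clones between the backgrounds all genes called ranged from 1583 to 3969. The lone clone left in a group was assumed to vary like the others, and the fewer samples lower the power of these fits. Values that changed sign were all small. Scaling to the same total gave Mga -0.0781 in Jak2WT (voom -0.0456, and -0.0356 to 0.0665 with single libraries left out), Mnt -0.0942 between the backgrounds among GLUT1/3 WT clones (voom -0.0687, and -0.114 to 0.207), and Mxd4 0.00701 and Mga 0.039 in the interaction (voom 0.0045 for Mga). With single libraries left out, Myc ranged from -0.245 to 0.0069 between the backgrounds among dKO clones, and in the interaction Mxd1 ranged from -0.024 to 0.0475 and Mnt from -0.025 to 0.297. Scaling to the same total moved the median of all genes by -0.13 between the backgrounds among GLUT1/3 WT clones and by 0.16 in the interaction, and with it Max lost its call between the backgrounds (adjusted p = 0.0617). Clones with the same number did not deviate together (correlations of deviations -0.25 to 0.15 over 11818 genes), and with the clone number as a replicate block the interaction of Max lost its call (-0.61, adjusted p = 0.0650) while the counts of the 8 genes called in the 5 comparisons were 1, 5, 4, 0 and 2 (1323, 3226, 3355, 1769 and 956 of all genes). Mxd1 and Mxd3 had 45 to 367 reads in a library, which limits what can be detected for them.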
